A study of Homo sapiens with 12 samples.

Results

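The 50 genes described here encode proteins that condense, attach, move and divide chromosomes and cells in mitosis, together with the transcription factors FOXM1 and MYBL2. They were chosen by name, and all 50 were found among the 13881 genes of the deposited expression table. All 50 also passed the filter on low values (at least 1 FPKM in at least 3 libraries), as did 13353 genes in all. RNA was sequenced from KG-1 and MOLM-14 (MOLM14 in the sample titles), established human acute myeloid leukaemia cell lines. Each line was cultured for 96 h with DMSO, the solvent control, or with ASLAN003, an inhibitor of dihydroorotate dehydrogenase, a mitochondrial enzyme with which cells make pyrimidines de novo. Each of the 4 groups (KG-1 DMSO, KG-1 ASLAN003, MOLM-14 DMSO and MOLM-14 ASLAN003) had 3 libraries, written below as replicates 1 to 3. The dose was not stated, and each line stands for itself alone as a model of the disease.

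Many mitotic genes are switched on late in the cell cycle, when cells pass from DNA replication into G2 and mitosis. Their messages are scarce in resting cells. Whether this holds for every gene described here, MYBL2 and BUB3 among them, was not tested. Cyclin A2, the B cyclins and CDK1 drive entry into mitosis, the aurora and polo kinases build the spindle, the checkpoint proteins hold back chromosome separation until every kinetochore is attached, and the anaphase-promoting complex then releases the sister chromatids. B-MYB (encoded by MYBL2), the MuvB core and FOXM1 are the activators that act at many of these promoters, whose known elements are the CCAAT box bound by NF-Y and the cell cycle genes homology region (CHR) bound through MuvB. Since RNA was taken from whole cultures, fewer dividing cells and less of these messages per dividing cell cannot be told apart.

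The promoters below belong to genes that the results return to: CDC20, MYBL2 and CCNA2 fell in KG-1, ANLN rose in MOLM-14, and CENPF, called in neither line, had the largest standard error of the 50 genes. The sequences are from RefSeq (GRCh38.p14), written 5′ to 3′ on the strand of the gene. CDC20 and CENPF are given as the 250 bases before the start, and the others as a stretch of 30 bases around a match. Capitals mark CCAAT (or its complement ATTGG), the CHR letters TTTGAA (or TTCAAA), and the E2F core GGCGGGA (or TCCCGCC).
CDC20 (chr1:43358731-43358980, plus strand): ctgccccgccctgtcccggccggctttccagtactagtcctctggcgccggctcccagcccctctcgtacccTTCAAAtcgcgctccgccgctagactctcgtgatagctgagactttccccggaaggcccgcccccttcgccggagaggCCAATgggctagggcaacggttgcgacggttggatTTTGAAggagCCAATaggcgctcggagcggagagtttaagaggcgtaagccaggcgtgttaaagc
CENPF (chr1:214602945-214603194, plus strand): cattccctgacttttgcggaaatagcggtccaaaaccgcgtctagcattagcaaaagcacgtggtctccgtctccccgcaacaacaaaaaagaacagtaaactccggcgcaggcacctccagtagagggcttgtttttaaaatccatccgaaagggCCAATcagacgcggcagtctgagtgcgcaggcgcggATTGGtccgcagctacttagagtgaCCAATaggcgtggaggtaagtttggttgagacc
MYBL2 (chr20:43667063-43667092, plus strand): gccgacgcgcttGGCGGGAgatagaaaagt
ANLN (chr7:36389830-36389859, plus strand): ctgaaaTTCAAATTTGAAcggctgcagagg
CCNA2 (chr4:121823922-121823951, minus strand): gcgagcgctttcATTGGtccatttcaatag
The CDC20 promoter held 2 CCAAT and 2 TTTGAA matches, the CENPF promoter held 3 CCAAT matches, and the stretch from ANLN held 2 adjacent TTTGAA matches.

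RefSeq promoters were found for 43 of the 50 genes, in 54 entries, and not for AURKA, BIRC5, BUB3, FOXM1, TPX2, TTK and UBE2C. CCAAT or ATTGG was found in 72.2% of the 54 entries, against 32.0% of all 35116 promoter entries and 32.9% of the 13373 entries of tested genes. TTTGAA or TTCAAA was found in 48.1% of the entries of mitotic genes, against 13.3% of all entries and 9.01% of those of tested genes. Both motifs stood together in 38.9% of the entries of mitotic genes and in 4.69% of all entries. The second form of the CHR, TTCGAA, was found in 1.85% of the entries and in 1.19% of all. The E2F core was found in 22.2% of the entries, against 13.5% of all entries and 20.7% of those of tested genes. Both strands of the 250 bases before the start were searched; no motif contains another, but neighbouring matches may share end bases, and a match describes letters, not a bound site. By gene, CCAAT was matched in 9 of the 10 genes with an entry that fell in KG-1 and in 25 of the 33 others, and TTTGAA in 5 of the 10 and 19 of the 33.

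The depth of each library, estimated from the steps between its lowest values, was 17400000 to 18600000 fragments. No pair of libraries held identical values, and the highest correlation between 2 libraries over tested genes was 0.985. All 5 myeloid identity markers (PTPRC, CD33, SPI1, MPO and CEBPA) were listed, with a summed level of 487 to 713 FPKM over the 12 libraries. These 5 markers did not move together after ASLAN003. By limma 2 were called higher and 2 lower in KG-1, where 19.4% and 14.3% of all tested genes were. In MOLM-14, 1 was called higher and 1 lower, where 9.69% and 3.33% of all tested genes were. MPO, the gene of the granule enzyme myeloperoxidase, fell from 160.3 ± 16.9 to 37.9 ± 5.63 FPKM in KG-1 and from 20.8 ± 3.79 to 4.83 ± 0.710 FPKM in MOLM-14, while SPI1 went from 123 ± 8.18 to 244 ± 13.99 FPKM in KG-1 (SD, n = 3 each). Of the 5 erythroid markers none was listed, and of 5 lymphoid markers only CD3D was, at no more than 0.22 FPKM. Of 4 epithelial markers 3 were listed (EPCAM, KRT8 and KRT18), with a summed level of 18.2 to 36.3 FPKM over the 12 libraries. Of 4 fibroblast markers only COL1A1 was listed, at 6.30 to 10.7 FPKM in KG-1 and 0.490 to 5.01 FPKM in MOLM-14. After ASLAN003 the summed level of 5 monocyte markers (CD14, ITGAM, LYZ, CSF1R and FCGR1A) was 1031 to 1162 FPKM in KG-1, against 147 to 170.4 FPKM in DMSO. In MOLM-14 it was 2897 to 4096 FPKM, against 696 to 722 FPKM. LYZ made up most of these sums, with means of 846 ± 57.6 FPKM in treated KG-1 and 3411 ± 590 FPKM in treated MOLM-14. By limma 4 of the 5 were called higher in each line, against 19.4% and 9.69% of all tested genes. CSF1R stayed near its level in KG-1, at 9.71 ± 2.09 FPKM in DMSO and 10.4 ± 0.975 FPKM in ASLAN003 (SD, n = 3 each). The 5 listed granulocyte markers of 6 (S100A8, S100A9, MMP9, CSF3R and ELANE) summed to 27079 to 31532 FPKM in treated KG-1, against 3886 to 4253 FPKM in DMSO, and to 1681 to 4377 FPKM in treated MOLM-14, against 1156 to 1373 FPKM. S100A8 and S100A9 made up most of the sum in treated KG-1, with means of 10159 ± 1003 and 17230 ± 936 FPKM. ELANE went the other way and was the 1 granulocyte marker called lower in each line, from 3031 ± 336 to 962 ± 178 FPKM in KG-1 and from 1115 ± 95.9 to 606 ± 20.2 FPKM in MOLM-14 (SD, n = 3 each). The part of these shifts in the values below was not tested.

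In 3 of the 4 groups the libraries differed more in mitotic genes than in other genes. KG-1 ASLAN003 replicate 2 was the highest of its group in 47 of the 50 genes (94.0%) and replicate 3 the lowest in 49 (98.0%). Over all tested genes these libraries were highest in 34.1% and lowest in 44.0%. The median SD between libraries on the log2 scale was 0.347 for the mitotic genes and 0.155 for all tested genes in KG-1 ASLAN003, and 0.0969 and 0.129 in KG-1 DMSO. In MOLM-14 it was 0.220 and 0.177 in DMSO, and 0.310 and 0.271 in ASLAN003. MOLM-14 DMSO replicate 1 was the highest of its group in 38 of the 50 genes (against 34.6% of all tested genes) and MOLM-14 ASLAN003 replicate 1 in 40 (against 40.3%), while MOLM-14 ASLAN003 replicate 3 was the lowest in 36 (against 32.5%). KG-1 DMSO replicate 3 was the highest of its group in 35 (70.0%, against 36.7%).

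**Figure D1:**
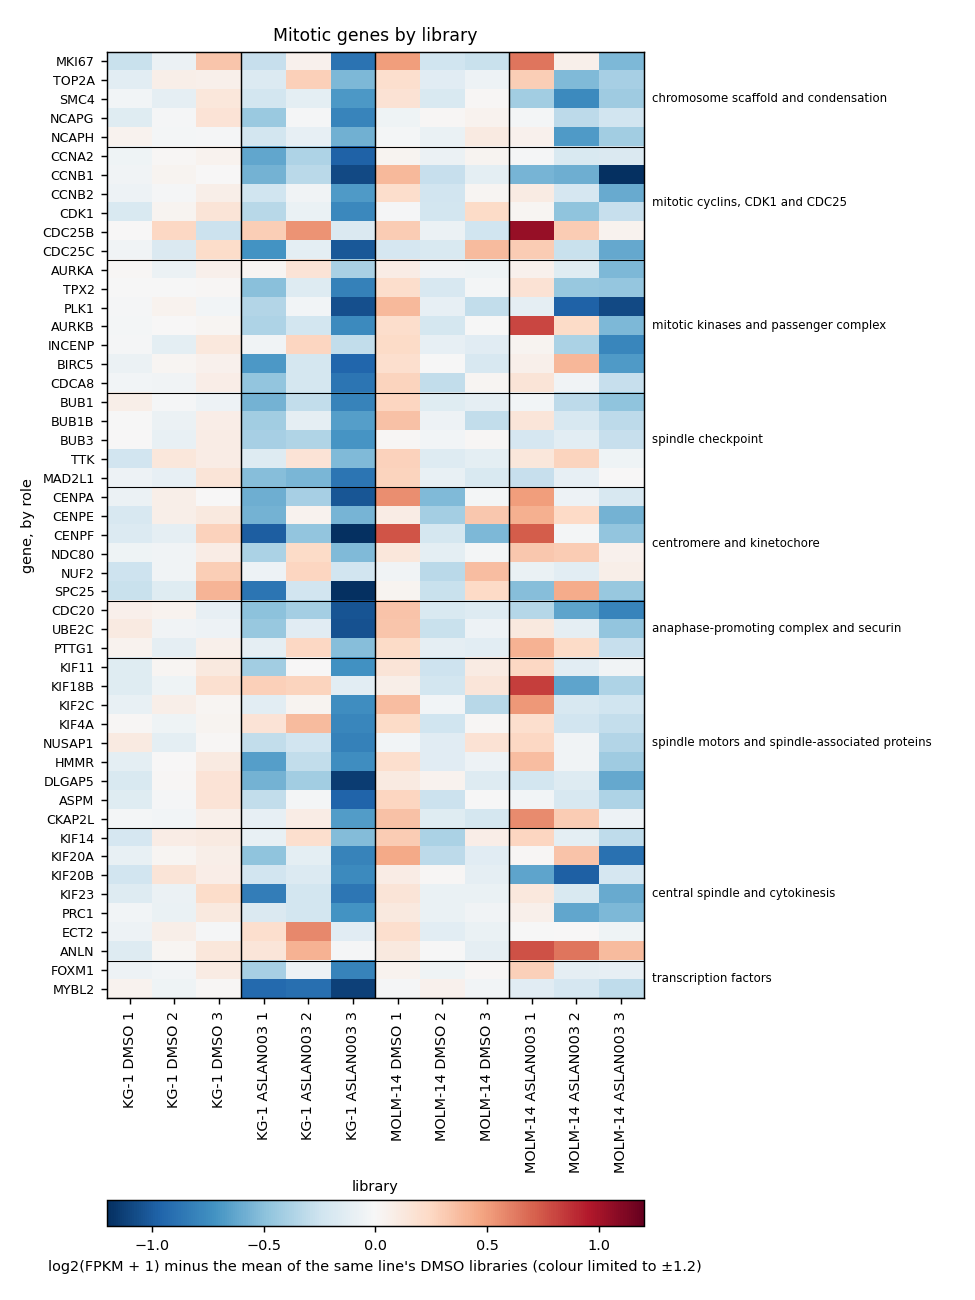
Level of the 50 genes (rows, by role) in the 12 libraries (columns), as log2(FPKM + 1) minus the mean of the same line's 3 DMSO libraries; blue is lower, red is higher, and colours stop at 1.2 in either direction. The column of KG-1 ASLAN003 replicate 3 is blue for all 50 genes, while MYBL2 at the bottom is blue in all 3 treated KG-1 libraries and ANLN is red in all 3 treated MOLM-14 libraries.

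Against the mean of the KG-1 DMSO libraries, the median of the 50 genes was -0.38, -0.10 and -0.77 in the 3 treated KG-1 libraries (replicates 1 to 3) on the log2(FPKM + 1) scale, while the median of all tested genes was 0.067, 0.074 and 0.010. The KG-1 DMSO libraries themselves lay at -0.057, -0.011 and 0.079. In MOLM-14 the treated libraries had medians of 0.12, -0.14 and -0.37 for the mitotic genes and 0.12, 0.064 and 0.056 for all tested genes, and the DMSO libraries 0.20, -0.14 and -0.043 for the mitotic genes. The treated and control medians thus did not overlap in KG-1 and overlapped in MOLM-14. The 22 genes of DNA replication, a neighbouring step of the cell cycle, had medians of -0.33, -0.24 and -0.47 in treated KG-1 and -0.11, -0.0087 and -0.11 in treated MOLM-14, with less spread between the treated KG-1 libraries. Summed over the 50 genes, the level was 2595 ± 114 FPKM in KG-1 DMSO and 1972 ± 444 FPKM in KG-1 ASLAN003, and 2006 ± 232 and 1752 ± 296 FPKM in MOLM-14 (SD, n = 3 each).

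**Figure D2:**
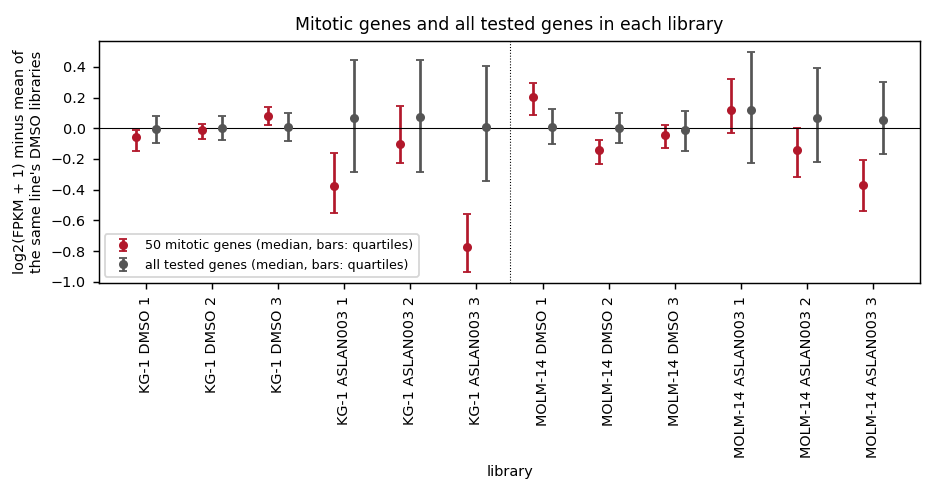
Median (points) and quartiles (bars) of the 50 mitotic genes (red) and of all tested genes (grey) in each of the 12 libraries, as log2(FPKM + 1) minus the mean of the same line's DMSO libraries. The mitotic genes lie at -0.38, -0.10 and -0.77 in the treated KG-1 libraries, and their treated and control medians overlap in MOLM-14.

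In KG-1, part of the mitotic genes fell after ASLAN003, and no mitotic gene rose by the test used. The largest fall was that of the transcription factor gene MYBL2, whose timing in the cell cycle was not tested. By limma, p-values were adjusted over all 13353 tested genes, and a gene was called at an adjusted p under 0.05. By this rule 11 of the 50 genes were lower (22.0%, against 14.3% of all tested genes) and 0 were higher, against 19.4%. At an unadjusted p under 0.05, 23 of the 50 were lower and 0 higher, against 2508 and 3296 of the 13353 tested genes. Called in either direction were 33.7% of all tested genes. The log2 difference was below 0 in 46 of the 50 genes (92.0%), against 45.6% of all tested genes, and its median was -0.41, against 0.05. In 23 genes (46.0%) every treated library lay below every DMSO library, against 24.5% of tested genes, and 12 of these did not pass the test. The genes that fell were MYBL2, DLGAP5, CCNB1, CCNA2, CDC20, MAD2L1, KIF23, HMMR, BUB1, CDCA8 and BUB3, of which MYBL2, CCNA2, MAD2L1 and BUB3 were called under all 22 alternative settings. Without KG-1 ASLAN003 replicate 3, only those 4 were called, 38 genes were below 0 and the median was -0.22; without replicate 2, 21 genes were called lower and the median was -0.56. The number of lower calls was 7 without KG-1 ASLAN003 replicate 1, 5, 6 and 6 without KG-1 DMSO replicates 1, 2 and 3, and 18 without MOLM-14 ASLAN003 replicate 1.

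MYBL2 had the largest fall of the 50 genes. It encodes B-MYB, the activator that joins the MuvB core in cycling cells (chromosome 20, 43667019 to 43716496, plus strand in GRCh38). Its level was 131, 123 and 128 FPKM in the DMSO libraries and 66.2, 67.5 and 58.1 FPKM in the ASLAN003 libraries. Every treated library lay far below every control, and the treated libraries were close together. The mean fell by 49.7% (-0.98 ± 0.089 on the log2 scale, SE, adjusted p = 5.97e-06). FOXM1, the other activator, was at 52.1, 52.9 and 58.0 FPKM in DMSO and 41.0, 52.1 and 30.6 FPKM in ASLAN003, with treated replicate 2 level with the lowest control (-0.42 ± 0.17, adjusted p = 0.0726). Of 9 listed genes of the MuvB and DREAM complexes, 1 was called higher (11.1%, against 19.4% of all tested genes). It was LIN54, which went from 7.51 ± 0.237 to 10.5 ± 1.49 FPKM (SD, n = 3), a difference of 0.43 ± 0.15 (adjusted p = 0.0474). Lower calls numbered 0, against 14.3% of all tested genes. At an unadjusted p under 0.05 by limma 0 were lower, against 2508 of the 13353 tested genes.

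Among the 6 cyclin, CDK1 and CDC25 genes, CCNA2 and CCNB1 fell (33.3%, against 14.3% of all tested genes). CCNA2, the cyclin of S phase and early mitosis, was at 71.3, 74.7 and 76.2 FPKM in DMSO and 47.8, 57.0 and 37.3 FPKM in ASLAN003. All treated libraries lay below all controls, with replicate 3 lowest and replicate 2 highest, and the mean fell by 36.1% (-0.65 ± 0.13, adjusted p = 0.00221). CCNB1, the main cyclin of mitotic entry, was at 139, 146 and 144 FPKM in DMSO and 96.1, 114 and 66.7 FPKM in ASLAN003, again without overlap (-0.66 ± 0.22, adjusted p = 0.0370). CDK1, the kinase that both cyclins activate, was at 59.99, 69.7 and 76.0 FPKM and 53.9, 64.7 and 39.4 FPKM, overlapping through treated replicate 2 (-0.40 ± 0.19, adjusted p = 0.122). CDC25B, a phosphatase that activates CDK1, stood above 0 at 0.22 ± 0.26 (adjusted p = 0.553), with 14.9, 17.8 and 12.2 FPKM in DMSO and 18.4, 22.0 and 13.0 FPKM in ASLAN003. CCNB2 (-0.32 ± 0.19) and CDC25C (-0.62 ± 0.28), a second mitotic cyclin and a second phosphatase, were not called.

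The spindle checkpoint had 3 of its 5 genes called lower (14.3% of all tested genes were). BUB1, a checkpoint kinase of the kinetochore, was at 62.4, 59.1 and 57.1 FPKM in DMSO and 39.8, 48.2 and 33.6 FPKM in ASLAN003 (-0.56 ± 0.16, adjusted p = 0.0157). BUB3, its binding partner, was at 79.0, 73.9 and 84.1 FPKM and 59.8, 61.3 and 47.8 FPKM (-0.49 ± 0.10, adjusted p = 0.00272). MAD2L1, which encodes the checkpoint inhibitor of CDC20, went from 72.5 ± 7.24 to 46.1 ± 6.29 FPKM (SD, n = 3; -0.65 ± 0.14, adjusted p = 0.00391). In each of these, treated and control libraries did not overlap. BUB1B, the gene of the checkpoint protein BUBR1, was at 32.7, 31.2 and 34.9 FPKM in DMSO and 24.4, 30.4 and 20.5 FPKM in ASLAN003, also without overlap but not called (-0.40 ± 0.18, adjusted p = 0.115). TTK, which encodes the kinase at the head of the checkpoint, was at 32.1, 41.7 and 40.4 FPKM and 33.8, 42.5 and 25.9 FPKM, with overlap (-0.17 ± 0.18, adjusted p = 0.511).

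Of the target that the checkpoint restrains, CDC20, the activating subunit of the anaphase-promoting complex, fell (-0.65 ± 0.18, adjusted p = 0.0165). Its level was 85.8, 84.5 and 76.9 FPKM in DMSO and 58.3, 61.6 and 39.6 FPKM in ASLAN003, and the groups did not overlap. UBE2C, the ubiquitin-conjugating enzyme of that complex, was at 134, 122 and 119.5 FPKM and 91.2, 114 and 60.2 FPKM (-0.54 ± 0.22, adjusted p = 0.0747). PTTG1, the gene of securin, which the complex destroys, was at 116, 105 and 117 FPKM and 104, 134 and 78.6 FPKM (-0.12 ± 0.20, adjusted p = 0.678). UBE2C did not overlap between the groups, and PTTG1 did, with treated replicate 2 the highest of the 6 libraries.

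Kinases of the spindle and the chromosomal passenger complex gave 1 call among 7 genes, the share of lower calls among all tested genes being 14.3%. The called gene was CDCA8, the borealin gene (34.3 ± 1.67 FPKM in DMSO and 24.0 ± 5.57 FPKM in ASLAN003, SD, n = 3; -0.52 ± 0.18, adjusted p = 0.0443). AURKB, the kinase of the passenger complex, was at 47.9, 48.8 and 49.4 FPKM in DMSO and 37.4, 41.6 and 28.4 FPKM in ASLAN003 (-0.45 ± 0.26, adjusted p = 0.203). BIRC5, the survivin gene, was at 38.6, 41.3 and 42.2 FPKM and 24.9, 35.0 and 20.5 FPKM (-0.62 ± 0.24, adjusted p = 0.0687). Both were lower in every treated library without passing the test. AURKA, the kinase of the spindle poles, was at 44.8, 42.1 and 46.3 FPKM and 45.1, 49.9 and 33.5 FPKM (-0.07 ± 0.16, adjusted p = 0.789). PLK1, the polo kinase, was at 57.4, 59.7 and 56.4 FPKM and 45.0, 56.5 and 27.3 FPKM (-0.48 ± 0.28, adjusted p = 0.211). INCENP, the scaffold of the passenger complex, was at 40.9, 38.0 and 45.2 FPKM and 39.9, 49.6 and 33.5 FPKM (-0.03 ± 0.20, adjusted p = 0.937). These 3 genes overlapped between the groups. Treated replicate 2 lay within or above the control range, and in AURKA and INCENP treated replicate 1 lay within it. TPX2, the activator of aurora A, was lower without overlap but was not called (-0.49 ± 0.19, adjusted p = 0.0648).

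Of the 6 centromere and kinetochore genes 0 were called by limma, against 33.7% of all tested genes in either direction (14.3% lower). At an unadjusted p under 0.05, 3 of the 6 were lower, against 2508 of the 13353 tested genes, and the median was -0.52. CENPF, the gene of a large outer kinetochore protein, was at 60.9, 63.6 and 82.9 FPKM in DMSO and 34.0, 49.2 and 26.0 FPKM in ASLAN003. Every treated library was below every control, yet the fitted difference of -0.94 ± 0.35 had an adjusted p of 0.0588 by limma. All 12 libraries share an estimate of the spread in that fit, and its part in this value was not tested. CENPA, the histone variant that marks the centromere, was at 26.5, 29.4 and 28.0 FPKM and 18.3, 20.9 and 13.2 FPKM (-0.67 ± 0.26, adjusted p = 0.0630). SPC25, a subunit of the NDC80 complex that holds microtubules, was at 23.2, 25.3 and 37.6 FPKM and 14.9, 23.8 and 11 FPKM (-0.79 ± 0.30, adjusted p = 0.0582). CENPA did not overlap, whereas SPC25 did. CENPE, a kinetochore motor, was at 6.72, 8.26 and 8.56 FPKM and 4.95, 8.06 and 4.99 FPKM (-0.36 ± 0.28, adjusted p = 0.347). NDC80 itself was at 23.6, 23.7 and 26.1 FPKM and 18.6, 28.9 and 16.6 FPKM (-0.23 ± 0.18, adjusted p = 0.357), and its partner NUF2 had a difference of -0.01 ± 0.19.

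Among 9 spindle motors and spindle-associated genes, DLGAP5 and HMMR fell (22.2%, against 14.3% of all tested genes). DLGAP5, which encodes the spindle fibre protein HURP, was at 21.1, 24.3 and 27.2 FPKM in DMSO and 15.9, 17.8 and 10.4 FPKM in ASLAN003 (-0.71 ± 0.19, adjusted p = 0.0125). HMMR, the gene of a spindle pole protein, went from 26.2 ± 2.12 to 17.5 ± 3.2 FPKM (SD, n = 3; -0.57 ± 0.19, adjusted p = 0.0382). Both were lower in all treated libraries. KIF11, the motor that pushes the spindle poles apart, was at 27.1, 30.6 and 32.8 FPKM and 22.3, 30.3 and 17.8 FPKM (-0.38 ± 0.18, adjusted p = 0.135). NUSAP1, a microtubule-bundling protein gene, was at 83.7, 71.5 and 78.2 FPKM and 63.3, 66.1 and 44.0 FPKM (-0.44 ± 0.17, adjusted p = 0.0661). KIF18B, a motor that shortens astral microtubules, was at 25.7, 27.6 and 32.9 FPKM and 34.9, 34.7 and 26.1 FPKM (0.14 ± 0.29, adjusted p = 0.754). NUSAP1 did not overlap between the groups, and KIF11 and KIF18B did. The remaining 4 genes of this role (KIF2C, KIF4A, ASPM and CKAP2L) were not called, with differences of -0.28 ± 0.24, -0.08 ± 0.25, -0.43 ± 0.22 and -0.23 ± 0.23.

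In the central spindle and cytokinesis group, 1 of 7 genes was called lower, a share equal to the 14.3% of all tested genes. It was KIF23, while ECT2 and ANLN lay above 0. KIF23, the motor subunit of centralspindlin, was at 13.3, 14.1 and 17.5 FPKM in DMSO and 7.91, 12.6 and 7.71 FPKM in ASLAN003, without overlap (-0.64 ± 0.21, adjusted p = 0.0350). KIF20A, a motor of the midzone, was at 18.9, 20.4 and 21.1 FPKM and 14.1, 18.5 and 11.1 FPKM, likewise without overlap but not called (-0.47 ± 0.29, adjusted p = 0.238). KIF20B, a related motor, was at 11.8, 15.8 and 14.8 FPKM and 11.9, 12.4 and 7.85 FPKM, with overlap (-0.39 ± 0.21, adjusted p = 0.181). ECT2, the exchange factor that activates RhoA at the cleavage furrow, was at 24.9, 27.3 and 25.6 FPKM and 29.9, 39.2 and 23.5 FPKM (0.21 ± 0.17, adjusted p = 0.352). ANLN, the anillin gene, whose protein scaffolds the contractile ring, was at 32.6, 37.1 and 40.1 FPKM and 40.4, 49.1 and 36.0 FPKM (0.18 ± 0.14, adjusted p = 0.362). In ECT2 and ANLN, treated replicates 1 and 2 lay above every control and replicate 3 within or below the control range. PRC1, the bundler of the central spindle, and KIF14 had differences of -0.37 ± 0.18 and -0.14 ± 0.23.

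Genes of chromosome structure gave 0 calls among 5, against 33.7% of all tested genes in either direction (14.3% lower). At an unadjusted p under 0.05 by limma, 2 of the 5 were lower, against 2508 of the 13353 tested genes. MKI67, the gene of the proliferation marker Ki-67, was at 17.5, 20.3 and 27.2 FPKM in DMSO and 17.5, 22.1 and 11.1 FPKM in ASLAN003 (-0.37 ± 0.32, adjusted p = 0.400). TOP2A, the topoisomerase that untangles chromosomes, was at 92.2, 106 and 105 FPKM and 89.6, 123 and 68.8 FPKM (-0.14 ± 0.22, adjusted p = 0.675). SMC4, a core subunit of condensin, was at 158, 150.2 and 178 FPKM and 138, 149 and 99.8 FPKM (-0.35 ± 0.15, adjusted p = 0.101). MKI67 and TOP2A overlapped between the groups, while all SMC4 values of treated libraries lay below the controls. The condensin subunit genes NCAPG and NCAPH had differences of -0.42 ± 0.17 and -0.30 ± 0.17.

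The wider mitotic machinery was examined through 6 further lists with 110 genes, all tested. In KG-1, 23 of the 110 were called lower (20.9%, against 14.3% of all tested genes) and 2 higher (1.82%, against 19.4%), with a median of -0.21, against 0.05. Of 32 other kinetochore genes 10 (31.2%) fell, among them CENPP (6.75 ± 0.888 to 1.84 ± 0.314 FPKM, -1.45 ± 0.19), CENPH (18.4 ± 1.86 to 6.39 ± 0.425 FPKM, -1.39 ± 0.26) and CENPM (47.4 ± 4.74 to 23.9 ± 1.57 FPKM, -0.96 ± 0.12), subunits of the network on the centromere, and TRIP13 (22.4 ± 0.978 to 10.2 ± 0.833 FPKM, -1.06 ± 0.14), the remodeller of the checkpoint protein MAD2. Their adjusted p-values were 9.96e-05, 0.00139, 6.41e-05 and 8.67e-05. Of 21 other spindle and cytokinesis genes 7 (33.3%) fell, with KIFC1, a minus-end motor, at -0.84 ± 0.19 (adjusted p = 0.00409). Of 15 other genes of mitotic entry 4 (26.7%) fell, including CKS2, a CDK1 subunit (-0.75 ± 0.12, adjusted p = 0.000531), and CDCA3 (-0.77 ± 0.20, adjusted p = 0.00964). The anaphase-promoting complex list gave 1 lower call among 17 genes, and the condensin and cohesin list 1 lower and 1 higher among 16, the latter being the cohesin gene STAG2 (0.39 ± 0.14, adjusted p = 0.0444). Of the 22 DNA replication genes 12 (54.5%) fell, with a median of -0.36; CDC45, a subunit of the replicative helicase, had 39.7 ± 3.14 FPKM in DMSO and 23.4 ± 1.47 FPKM in ASLAN003 (-0.74 ± 0.10, adjusted p = 0.000121).

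In MOLM-14, the cyclin gene CCNB1 and the condensin gene SMC4 fell after ASLAN003, the anillin gene ANLN rose, and the other 47 mitotic genes did not pass the test. By limma 2 genes were called lower (4%, against 3.33% of all tested genes) and 1 higher (2%, against 9.69%), so the share of lower calls was near that of all tested genes. Calls in either direction came to 6% of the 50 genes, against 13.0%. The difference was below 0 in 36 of the 50 genes (72.0%), against 40.1%, with a median of -0.13, against 0.08 for all tested genes. In 7 genes every treated library was below every DMSO library (14.0%, against 8.17%), and in ANLN every treated library was above (2%, against 17.7%). Without MOLM-14 ASLAN003 replicate 1, 6 genes were called lower (3.35% of all tested genes were), 45 were below 0 and the median was -0.25. Without MOLM-14 ASLAN003 replicate 3, only 27 were below 0 and the median was -0.02. Without MOLM-14 DMSO replicate 1, 26 were below 0 and the median was -0.04, and without DMSO replicate 2 these were 42 and -0.21. The number of lower calls was 0 without KG-1 ASLAN003 replicate 1, KG-1 DMSO replicate 1 or 2, or MOLM-14 DMSO replicate 1 or 3. In those fits 1.86% to 2.73% of all tested genes were called lower. The number was 1 without KG-1 DMSO replicate 3 or MOLM-14 ASLAN003 replicate 2 (2.76% and 3.69% of all tested genes). Without KG-1 ASLAN003 replicate 3 it was 3 (3.32%). Each of the 3 calls was lost without at least 1 library, as given beside it. All 3 were also lost with libraries weighted by spread (adjusted p of 0.0563 to 0.104) and with MOLM-14 fitted alone (0.0879 to 0.120), CCNB1 and SMC4 without trend and robust estimation (0.0576 and 0.0657), and ANLN after quantile normalization (0.0530).

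CCNB1 (chromosome 5, 69167010 to 69178245, plus strand in GRCh38) was the mitotic gene called in both lines. Its level in MOLM-14 was 93.5, 58.6 and 65.1 FPKM in DMSO and 47.9, 47.0 and 30.03 FPKM in ASLAN003. The groups did not overlap, although DMSO replicate 1 stood above the other controls, and the mean fell by 42.5% (-0.78 ± 0.22, adjusted p = 0.0359). Leaving out single libraries of either line raised the adjusted p to at most 0.134, and the call was kept in 5 of 12 such fits. The other genes of its role were not called: CCNA2 was at 35.1, 32.4 and 35.1 FPKM in DMSO and 33.9, 29.9 and 30.1 FPKM in ASLAN003 (-0.13 ± 0.13, adjusted p = 0.589). CDK1 was at 50.8, 43.7 and 60.2 FPKM and 52.0, 36.4 and 42.0 FPKM (-0.24 ± 0.19, adjusted p = 0.437). CDC25B was at 18.4, 13.97 and 12.3 FPKM and 31.4, 18.4 and 15.2 FPKM (0.46 ± 0.26, adjusted p = 0.271). In all 3 the groups overlapped, and for CDC25B treated replicate 1 was the highest of the 6 libraries.

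ANLN (chromosome 7, 36389806 to 36453791, plus strand) was at 16.6, 15.2 and 14.02 FPKM in MOLM-14 DMSO and 26.6, 24.3 and 20.1 FPKM in ASLAN003. Every treated library exceeded every control, and the mean was 55.2% higher (0.60 ± 0.14, adjusted p = 0.0175). The call was kept in 10 of 12 fits without 1 library, the exceptions being those without DMSO replicate 2 or 3, with an adjusted p of at most 0.0610. ECT2, which acts with anillin at the furrow, was at 9.91, 7.65 and 7.97 FPKM and 8.41, 8.51 and 8.12 FPKM (-0.02 ± 0.17, adjusted p = 0.970). KIF23 was at 15.7, 13.2 and 13.2 FPKM and 15.3, 12.2 and 8.88 FPKM (-0.22 ± 0.21, adjusted p = 0.552). KIF20A was at 23.7, 13.5 and 15.4 FPKM and 17.2, 21.9 and 8.73 FPKM (-0.18 ± 0.29, adjusted p = 0.746). Those 3 genes overlapped between the groups. KIF20B was at 15.3, 14.4 and 13.2 FPKM and 8.82, 6.74 and 12.3 FPKM, lower in every treated library but not called (-0.60 ± 0.21, adjusted p = 0.0791). PRC1 and KIF14 had differences of -0.37 ± 0.18 and -0.05 ± 0.23.

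SMC4 (chromosome 3, 160399274 to 160434962, plus strand) was at 237, 186 and 212 FPKM in MOLM-14 DMSO and 158, 124 and 156 FPKM in ASLAN003. The groups did not overlap, and the mean fell by 31.1% (-0.54 ± 0.15, adjusted p = 0.0373), a call kept in 6 of 12 fits without 1 library (adjusted p of at most 0.130). TOP2A was at 80.6, 63.7 and 66.9 FPKM and 86.2, 48.2 and 53.0 FPKM (-0.21 ± 0.22, adjusted p = 0.592). MKI67 was at 40.0, 23.6 and 23.2 FPKM and 44.3, 29.3 and 19.0 FPKM (0.06 ± 0.32, adjusted p = 0.945). In both of these genes replicate 1 was the highest of each group and the groups overlapped. The condensin genes NCAPG and NCAPH had differences of -0.19 ± 0.17 and -0.35 ± 0.17, neither called.

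Checkpoint and anaphase genes in MOLM-14 gave 0 calls among 8 by limma, against 13.0% of all tested genes. CDC20 was lower at an unadjusted p under 0.05, as were 1146 of the 13353 tested genes. BUB1 was at 40.4, 30.3 and 31.3 FPKM in DMSO and 32.9, 27.0 and 23.8 FPKM in ASLAN003 (-0.28 ± 0.16, adjusted p = 0.276). BUB1B was at 40.8, 30.4 and 25.7 FPKM and 35.2, 27.5 and 25.4 FPKM (-0.12 ± 0.18, adjusted p = 0.726). BUB3 was at 233, 227 and 234 FPKM and 200.96, 212 and 191 FPKM, with no overlap (-0.20 ± 0.10, adjusted p = 0.223). The first 2 overlapped between groups, with DMSO replicate 1 the highest library in both. TTK was at 18.1, 13.2 and 13.5 FPKM and 16.3, 18.1 and 14.2 FPKM (0.12 ± 0.18, adjusted p = 0.735), and MAD2L1 had a difference of -0.12 ± 0.14. CDC20 was at 95.4, 65.7 and 67.1 FPKM and 59.1, 48.1 and 42.9 FPKM, lower in every treated library (-0.59 ± 0.18, adjusted p = 0.0540). Between the lines, the change of CDC20 differed by -0.06 ± 0.26 (adjusted p = 0.920). UBE2C was at 69.6, 45.6 and 52.7 FPKM and 59.9, 51.2 and 39.4 FPKM (-0.15 ± 0.22, adjusted p = 0.705). PTTG1 was at 49.9, 39.1 and 38.7 FPKM and 56.7, 49.7 and 34.8 FPKM (0.12 ± 0.20, adjusted p = 0.741). Both overlapped between the groups.

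No kinase or passenger complex gene was called in MOLM-14, against 13.0% of all tested genes. PLK1 was lower at an unadjusted p under 0.05 by limma, as were 1146 of the 13353 tested genes. PLK1 was at 65.1, 46.2 and 40.2 FPKM in DMSO and 45.8, 24.7 and 22.8 FPKM in ASLAN003 (-0.72 ± 0.28, adjusted p = 0.113). AURKA was at 31.3, 28.6 and 28.4 FPKM and 30.5, 26.5 and 19.9 FPKM (-0.21 ± 0.16, adjusted p = 0.440). AURKB was at 57.0, 42.2 and 48.7 FPKM and 86.1, 57.8 and 33.4 FPKM (0.17 ± 0.26, adjusted p = 0.734). In AURKB, treated replicate 1 was far above the other 5 libraries, and treated replicate 3 below them. BIRC5 was at 36.5, 31.5 and 27.5 FPKM and 33.0, 41.9 and 19.4 FPKM (-0.07 ± 0.24, adjusted p = 0.890). INCENP was at 49.3, 39.3 and 38.3 FPKM and 43.1, 32.0 and 24.1 FPKM (-0.37 ± 0.20, adjusted p = 0.237). All 5 genes overlapped between the groups, and TPX2 and CDCA8 had differences of -0.25 ± 0.19 and -0.06 ± 0.18.

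Kinetochore genes gave 0 calls among 6 in MOLM-14 by limma, against 13.0% of all tested genes. At an unadjusted p under 0.05 there were also 0, where 1146 of the 13353 tested genes were lower and 2595 higher. The median of the 6 genes was 0.06, while the spread between libraries was wide. CENPF was at 62.4, 31.5 and 24.99 FPKM in DMSO and 61.5, 36.2 and 26.1 FPKM in ASLAN003 (0.08 ± 0.35, adjusted p = 0.924). Replicate 1 was well above the other libraries in both groups. CENPA was at 17.2, 7.55 and 11.2 FPKM and 16.5, 10.9 and 9.85 FPKM (0.08 ± 0.26, adjusted p = 0.882). CENPE was at 5.12, 3.34 and 6.23 FPKM and 6.75, 5.80 and 2.90 FPKM (0.03 ± 0.28, adjusted p = 0.965). NDC80 was at 15.4, 12.8 and 13.7 FPKM and 17.7, 17.4 and 14.4 FPKM (0.23 ± 0.18, adjusted p = 0.450). The groups overlapped in each of these, and SPC25 was at 13.6, 10.9 and 15.8 FPKM and 9.04, 18.4 and 9.44 FPKM, also with overlap (-0.17 ± 0.30, adjusted p = 0.765).

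The spindle motors and the transcription factors gave 0 calls among 11 in MOLM-14 by limma, against 13.0% of all tested genes. MYBL2 was lower at an unadjusted p under 0.05, as were 1146 of the 13353 tested genes. MYBL2 was at 90.1, 94.8 and 89.0 FPKM in DMSO and 83.0, 79.1 and 73.6 FPKM in ASLAN003. The groups did not overlap, but the difference of -14% between the means (-0.22 ± 0.089 on the log2 scale) was not called (adjusted p = 0.132). FOXM1 was at 28.1, 26.4 and 27.7 FPKM and 33.5, 25.3 and 25.5 FPKM (0.02 ± 0.17, adjusted p = 0.956). KIF11 was at 22.7, 16.9 and 21.7 FPKM and 24.3, 18.5 and 19.7 FPKM (0.03 ± 0.18, adjusted p = 0.949). DLGAP5 was at 18.0, 17.2 and 14.9 FPKM and 14.1, 14.9 and 10.5 FPKM, lower in every treated library (-0.33 ± 0.19, adjusted p = 0.289). KIF18B, by contrast, ranged widely in the treated libraries, at 16.4, 13.2 and 17.3 FPKM and 28.4, 9.64 and 11.8 FPKM (-0.06 ± 0.29, adjusted p = 0.936). CKAP2L, a gene of a spindle pole protein, was at 6.69, 4.44 and 4.19 FPKM and 7.90, 6.42 and 4.75 FPKM (0.27 ± 0.23, adjusted p = 0.492). NUSAP1 was at 99.0, 92.2 and 115 FPKM and 121, 98.3 and 79.2 FPKM (-0.05 ± 0.17, adjusted p = 0.899). FOXM1, KIF11, KIF18B, CKAP2L and NUSAP1 overlapped between the groups, and HMMR, KIF2C, KIF4A and ASPM had differences of -0.03 ± 0.19, 0.03 ± 0.24, -0.11 ± 0.25 and -0.20 ± 0.22.

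Of the 110 other mitotic genes, 4 were called lower (3.64%, against 3.33% of all tested genes) and 2 higher (1.82%, against 9.69%) in MOLM-14, with a median of -0.05, against 0.08. The share of lower calls was thus near that of all tested genes. SKA2, a gene of the microtubule-binding SKA complex, fell from 37.5 ± 2.42 to 17.3 ± 3.63 FPKM (SD, n = 3; -1.09 ± 0.20, adjusted p = 0.00413). SPDL1, which encodes a dynein adaptor at kinetochores, fell from 22.4 ± 0.376 to 13.6 ± 2.24 FPKM (-0.69 ± 0.14, adjusted p = 0.00730). WEE1, the kinase that restrains CDK1, and the condensin gene NCAPD2 also fell (-0.60 ± 0.17 and -0.44 ± 0.11, adjusted p = 0.0406 and 0.0199). The subunit genes of the anaphase-promoting complex ANAPC7 (0.42 ± 0.081, adjusted p = 0.00540) and ANAPC10 (0.46 ± 0.14, adjusted p = 0.0484) rose. Of the 22 replication genes 2 fell and 1 rose; POLA1, the catalytic subunit of DNA polymerase alpha, fell (-0.61 ± 0.15, adjusted p = 0.0209).

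**Figure D3:**
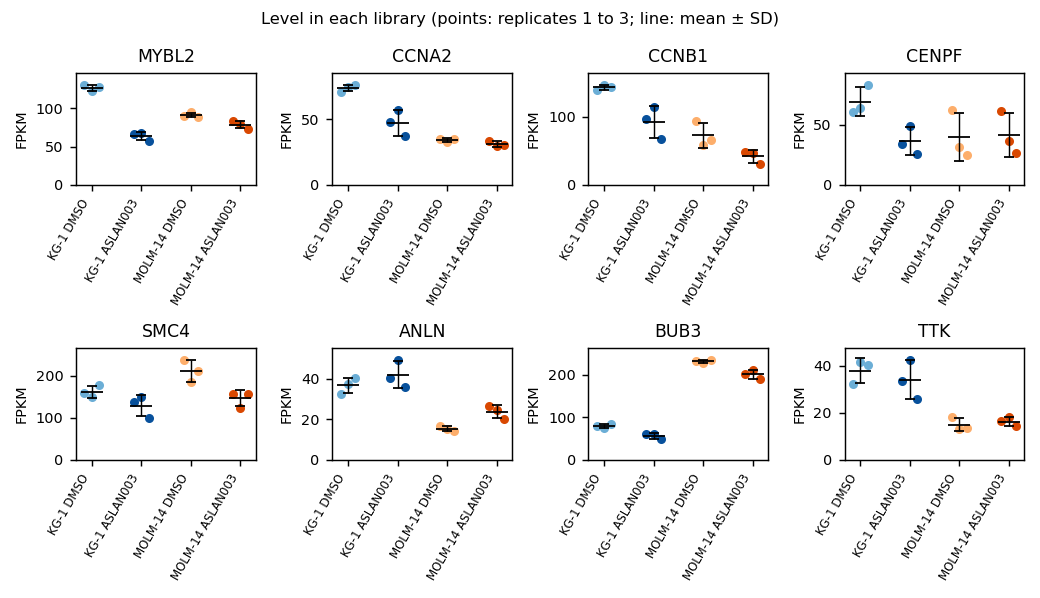
FPKM of 8 mitotic genes in each library (points, replicates 1 to 3 from left to right) with the mean and SD of each group. MYBL2 is lower in every treated KG-1 library, ANLN is higher in every treated MOLM-14 library, CENPF spreads widely in MOLM-14, and BUB3 is higher in MOLM-14 than in KG-1 in either treatment.

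The lines were compared directly by the difference between their ASLAN003 changes (KG-1 minus MOLM-14). MYBL2 was the 1 mitotic gene of 50 called (2%, against 4.89% of all tested genes called in that direction and 9.94% in either). Its difference was -0.77 ± 0.13 (95% interval -1.04 to -0.50, adjusted p = 0.00305), and it was called under all 21 alternative settings. The 38 genes with a difference below 0 made up 76.0%, against 52.6% of all tested genes, and the median was -0.29, against -0.03. Without KG-1 ASLAN003 replicate 3 the median was -0.13 with 32 genes below 0, and without MOLM-14 ASLAN003 replicate 1 it was -0.15 with 33. Without KG-1 ASLAN003 replicate 2 or MOLM-14 ASLAN003 replicate 3, 2 genes were called lower, against 3.06% or 5.23% of all tested genes. The median was then -0.45 or -0.44. In the higher direction 0 genes were called by limma, against 5.05%. At an unadjusted p under 0.05, 0 of the 50 were higher and 3 lower, against 1534 and 1774 of the 13353 tested genes.

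Other differences of large size did not pass. CENPF had a difference of -1.02 ± 0.50 (95% interval -2.11 to 0.07, adjusted p = 0.235). CENPA (-0.76 ± 0.37, adjusted p = 0.226), SPC25 (-0.62 ± 0.42, adjusted p = 0.405) and AURKB (-0.62 ± 0.37, adjusted p = 0.331) also lay below 0. That sign stands for a more negative change in KG-1 than in MOLM-14, not for a lower level. In the opposite direction the largest were INCENP (0.35 ± 0.28), PLK1 (0.24 ± 0.40), ECT2 (0.23 ± 0.23), KIF20B (0.22 ± 0.30) and KIF18B (0.20 ± 0.41), with adjusted p of at least 0.482. CCNA2, called in KG-1 and not in MOLM-14, had a difference of -0.53 ± 0.19 (95% interval -0.94 to -0.12, adjusted p = 0.0968), so a difference between the lines was not shown for it. The same holds for ANLN, called in MOLM-14 (-0.41 ± 0.20, adjusted p = 0.234). CCNB1, called in both lines, had a difference of 0.13 ± 0.31 (adjusted p = 0.852).

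**Figure D4:**
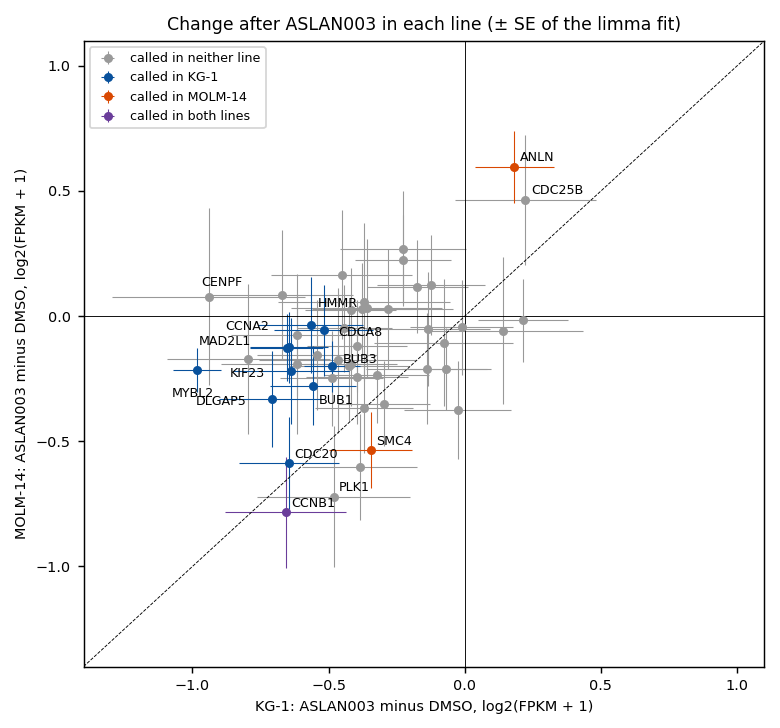
Log2(FPKM + 1) difference of ASLAN003 minus DMSO in KG-1 (horizontal) and MOLM-14 (vertical) for the 50 genes, with the SE of the limma fit; colours give the line in which a gene was called, and the dashed line marks equal changes. CCNB1 (purple) is called in both lines, and MYBL2 lies farthest left at -0.98 in KG-1 and -0.22 in MOLM-14.

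In DMSO, KG-1 had higher levels of mitotic genes than MOLM-14. By limma 27 of the 50 genes were higher in KG-1 (54.0%, against 27.1% of all tested genes) and 1, BUB3, was lower (2%, against 22.1%). Either call was made for 56.0% of the 50 genes, against 49.2%. The difference was above 0 in 43 genes, and the median was 0.52, against 0.05 for all tested genes. In 32 genes every KG-1 library was above every MOLM-14 library (64.0%, against 34.3%), and in 3 (BUB3, NUSAP1 and SMC4) every one was below (6%, against 29.0%). The genes called higher numbered 18 without KG-1 DMSO replicate 3 or MOLM-14 DMSO replicate 2 (23.1% and 23.8% of all tested genes). Those called lower numbered 3 without KG-1 ASLAN003 replicate 3 or MOLM-14 ASLAN003 replicate 1 (21.9% and 24.6%). They numbered 2 without MOLM-14 ASLAN003 replicate 2 or MOLM-14 DMSO replicate 2 (23.4% and 19.0%). Of the 28 calls, 19 were kept in all 21 alternative settings. The comparison uses the DMSO libraries that also serve as controls of the treated groups.

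The largest excess was that of ECT2, at 24.9, 27.3 and 25.6 FPKM in KG-1 and 9.91, 7.65 and 7.97 FPKM in MOLM-14, a 3.05-fold higher mean (1.51 ± 0.17, adjusted p = 8.93e-06). PTTG1 followed, with 2.65-fold (1.39 ± 0.20, adjusted p = 8.60e-05), and TTK, with 2.55-fold (1.30 ± 0.18, adjusted p = 8.27e-05). The values in each library, given above, did not overlap for any of the 3. CENPA (1.23 ± 0.26, adjusted p = 0.00169), ANLN (1.21 ± 0.14, adjusted p = 1.81e-05) and TPX2 (1.199 ± 0.19, adjusted p = 0.000202) came next. CCNA2 and CCNB1, which both fell in treated KG-1, were 2.165-fold and 1.97-fold higher in KG-1 DMSO than in MOLM-14 DMSO (adjusted p = 2.17e-05 and 0.00242). After ASLAN003 the mean of CCNA2 in KG-1, 47.4 ± 9.84 FPKM, was still above that of MOLM-14 DMSO, 34.2 ± 1.55 FPKM (SD, n = 3), while MYBL2 in treated KG-1, 63.9 ± 5.10 FPKM, was below MOLM-14 DMSO, 91.3 ± 3.05 FPKM; these pairs were not tested.

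BUB3 went the other way, with a 2.93-fold higher mean in MOLM-14 (-1.54 ± 0.10, adjusted p = 9.21e-08). The checkpoint thus had genes on both sides, since BUB1, TTK and MAD2L1 were higher in KG-1 and BUB1B did not differ beyond its error (0.05 ± 0.18, adjusted p = 0.837). By role, 8 of 9 spindle motor and spindle-associated genes were higher in KG-1, as were 4 of 6 kinetochore genes and both transcription factors. The counts were 2 of 6 among the cyclins and their regulators, 2 of 7 among the kinases and passenger complex and 1 of 5 among the chromosome structure genes, near the 27.1% of all tested genes, and differences between roles were not tested. MKI67, often read as a measure of proliferation, was not among the genes higher in KG-1 (-0.38 ± 0.32, adjusted p = 0.342). NUSAP1 (-0.38 ± 0.17), SMC4 (-0.38 ± 0.15), INCENP (-0.03 ± 0.20), KIF20B (-0.02 ± 0.21) and AURKB (-0.01 ± 0.26) were also below 0 without a call.

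Among the 110 other mitotic genes, 36 were higher in KG-1 DMSO (32.7%, near the 27.1% of all tested genes) and 13 lower (11.8%, against 22.1%), with a median of 0.23, against 0.05. PSRC1 (1.33 ± 0.40), CENPI (1.21 ± 0.20) and TROAP (1.16 ± 0.28) were among the higher ones (adjusted p = 0.0159, 0.000245 and 0.00395), as was CDC27, a core subunit of the anaphase-promoting complex (1.04 ± 0.16, adjusted p = 0.000124). The replication genes did not share this direction: 4 of 22 were higher in KG-1 (18.2%) and 8 lower (36.4%), with a median of -0.19.

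**Figure D5:**
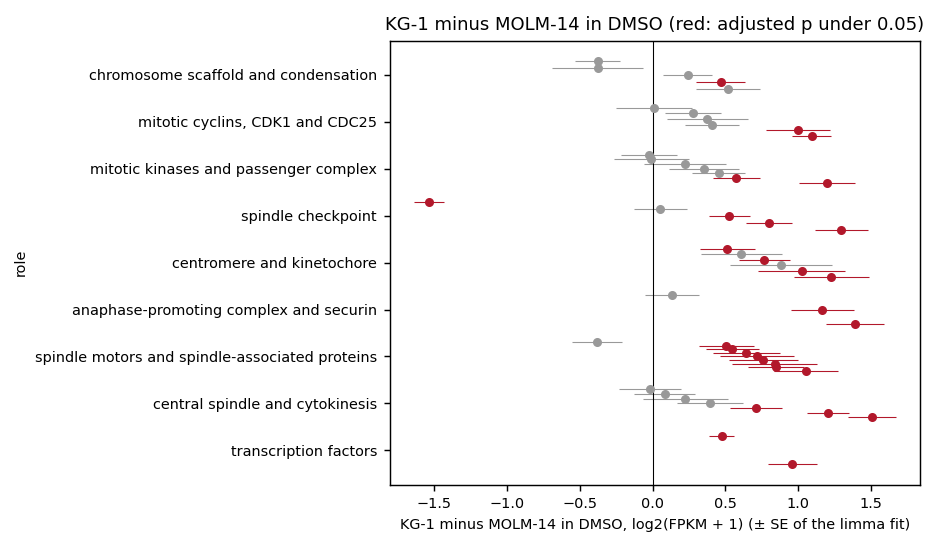
Difference KG-1 minus MOLM-14 in DMSO, in log2(FPKM + 1) with the SE of the limma fit, for the 50 genes grouped by role (points; red marks an adjusted p under 0.05). Most points lie right of 0, with BUB3 alone far to the left at -1.54 in the spindle checkpoint group.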

How the data were processed

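RNA was sequenced from 12 libraries in 4 groups of 3. The submitters' processing notes name bcl2fastq (2.17.1.14), the aligner STAR (2.4.2a), the quantifier RSEM (1.2.25) and the hg38 and GRCh38 builds; an annotation is not named. The authors deposited 1 log2 value per gene and library, on a scale that the values show to be log2(FPKM + 1). FPKM shares out each library's total, so a few abundant transcripts can move all other genes. Depth was estimated from the steps of low values: 77.1% to 83.2% of those used lay no more than 0.15 fragment from whole numbers (30.0% if uniform), so no count test was run. With limma 3.58.1 in R 4.3.3, the means of the 4 groups were fitted for the 13353 genes that reached 1 FPKM in 3 or more libraries (pseudocount 1, eBayes with trend and robust estimation, two-sided tests, Benjamini-Hochberg adjustment). The pseudocount makes differences of low genes look smaller than they are. Each SE comes from this fit.

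The labels do not say that replicates were separate cultures, and the p-values then reflect only how far these libraries scatter, possibly for technical reasons. The members, lists and naming rule (values in each library for 26 fixed genes and the 5 largest differences in each direction per comparison, and up to 4 called genes of each other list) were chosen with earlier results of these data known. Over all tested genes, the deviations of same-numbered libraries from their group means had correlations from -0.090 to 0.10. Pairing within the mitotic genes was not tested. In MOLM-14, replicate 1 was the highest of its group in 38 of these 50 genes in DMSO and in 40 in ASLAN003. Positions are from GENCODE 29. A gene of the monocyte marker list is not reported here and was left out of its sum. The script was tested on simulated data. Alternatives were a pseudocount of 0.1, no filter or a filter at 5 FPKM, median centring, quantile normalization, rescaling without abundant RNA classes, no trend or robust estimation, weighted libraries, a replicate block, each line alone and leaving out each library.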

Additional observations from a re-analysis of the deposited data

Results flagged for a closer look

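In these genes the change after ASLAN003 differed between KG-1 and MOLM-14 by the interaction term of the limma fit, given as KG-1 minus MOLM-14 on the log2 scale. Among the 50 mitotic genes it was MYBL2, with -0.77 ± 0.13 (adjusted p = 0.00305): its level was lower in 3 of 3 treated libraries in both lines, and by more in KG-1. Among other kinetochore genes they were CENPP (-1.42 ± 0.27, adjusted p = 0.00672), SPC24 (-1.03 ± 0.30, adjusted p = 0.0471), TRIP13 (-1.01 ± 0.20, adjusted p = 0.00771) and CENPM (-0.95 ± 0.17, adjusted p = 0.00482). In MOLM-14 these 4 had -0.02 ± 0.19, 0.33 ± 0.21, -0.06 ± 0.14 and -0.01 ± 0.12, none called, while all 4 were called lower in KG-1. ANAPC7 (-0.50 ± 0.11, adjusted p = 0.0170) rose in MOLM-14 and was not called in KG-1 (-0.07 ± 0.081). The replication genes CDT1 (-0.68 ± 0.16, adjusted p = 0.0159) and CDC45 (-0.61 ± 0.14, adjusted p = 0.0175) were called lower in KG-1 and not in MOLM-14 (0.05 ± 0.11 and -0.12 ± 0.10).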

How the results depend on the processing

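Median centring moved the median change of all tested genes by -0.12 in KG-1 and -0.15 in MOLM-14, and quantile normalization by -0.10 and -0.096. In KG-1 the 11 lower calls became 26 after median centring, 22 after quantile normalization, 17 after rescaling without abundant RNA classes, 23 with libraries weighted by spread and 19 with KG-1 fitted alone, and 0 were higher in each. In MOLM-14 the 2 lower calls became 6 after median centring (6.90% of all tested genes, against 3.33% before) and 4 after quantile normalization (4.24%). The 1 higher call was lost after quantile normalization, where 5.63% of all tested genes were called higher. There were 0 lower calls without trend and robust estimation, where 2.94% of all tested genes were called lower. With weighted libraries or MOLM-14 fitted alone there were 0 calls in either direction, against 7.14% and 2.59% of all tested genes. The 1 lower call in DMSO (KG-1 minus MOLM-14) became 2 with a filter at 5 FPKM, where 24.2% of all tested genes were called lower. It became 3 after median centring (24.5%) or with weighted libraries (27.7%). The cause of these shifts was not tested. With the replicate block, 14 mitotic genes were lower in KG-1, where 13.7% of all tested genes were. In MOLM-14, 3 were lower and 1 higher, against 3.00% and 8.88% of all tested genes. No weight was given to the block, since same-numbered libraries were at most weakly correlated over all tested genes. Whether they pair in the mitotic genes was not tested.

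With single libraries left out, lower calls ranged from 4 to 21 in KG-1 and from 0 to 6 in MOLM-14. Of all tested genes 10.1% to 17.1% and 1.86% to 4.80% were then called lower. In the difference between the lines lower calls ranged from 1 to 2 (2.49% to 8.84% of all tested genes). In DMSO they ranged from 1 to 3 (18.7% to 24.6%). Higher calls ranged from 0 to 1 in MOLM-14 (6.07% to 12.6%) and from 18 to 30 in DMSO (22.9% to 29.8%). The medians ranged from -0.56 to -0.22, from -0.25 to -0.02, from -0.45 to -0.13 and from 0.47 to 0.62 and kept their sign.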
